A study of Mus musculus with 12 samples.

Results

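The 8 genes described here encode intermediate filament proteins: the keratins Krt19, Krt18, Krt8 and Krt7, and Vim, Des, Synm and Nes. They were found by their names in the array annotation, where they have 13 of 55681 probes, among 34844 gene names in all. Krt19 was chosen because it was among the largest changes of these hearts, and Synm because one of its probes was high in some hearts and at background in others, so their values between mutants and controls are a description, and no test is given for them. Left ventricular RNA of 12 mice aged 6 months was measured on one-colour Agilent arrays, with 4 mice per group and 1 array per mouse. Both mutant groups carried a floxed allele of Nkx2-5, a cardiac homeobox transcription factor, and a tamoxifen-activated Cre under the Cx40 promoter, which marks the embryonic trabecular myocardium. In TrbE10 hearts (Nkx2-5Δtrab in the labels) tamoxifen was given to the mother at E10.5 and E11.5, and in TrbE14 hearts (Nkx2-5Δcomp) at E13.5 and E14.5. According to the methods, control mice were littermates homozygous for the floxed allele, with wild-type Cx40 and so no Cre. The labels give them no injection, so the sources leave unclear whether they had met tamoxifen. Cre, the Cx40 allele that carries it, tamoxifen and deletion cannot be told apart in these comparisons. The deletion was limited to the cells in which the promoter was active, whereas the RNA came from the ventricular wall with all its cell types.

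Intermediate filaments are built from paired rod-shaped proteins, and each cell type has its own set. Simple epithelia and the mesothelial layer over the heart use pairs of a type I keratin (Krt18, Krt19) with a type II keratin (Krt8, Krt7). Vimentin is the filament of fibroblasts, endothelial cells and other mesenchymal cells, and desmin that of muscle, where synemin joins it at the Z-discs and nestin is found in immature and vascular cells. Desmin is the main intermediate filament of adult cardiomyocytes.

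The probes that carry the results are shown first, each 60 bases long and read 5′ to 3′ from the deposited annotation, with positions in mm9. The Krt19 probe (chr11:100002392-100002451, minus strand) lies at position 1047 of the transcript and has an open reading frame throughout. Krt42 is a type I keratin of the same cluster, its probe lies 126 kb from that of Krt19 (chr11:100128252-100128311, minus strand), and it is shown because its levels followed those of Krt19. Among all probes of the array, the probe of Krt28, another type I keratin (chr11:99234074-99234133, minus strand), was the one most like it, with 41 matching bases in an ungapped overlap of 58. Capitals mark these matching bases. The second Krt42 probe (chr11:100127213-100127272, minus strand) and the Synm probes at positions 5224 (chr7:74877629-74877688, minus strand) and 6653 (chr7:74876200-74876259, minus strand) are given by their first 30 bases.
Krt19: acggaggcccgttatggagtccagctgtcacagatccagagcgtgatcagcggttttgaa
Krt42, first probe: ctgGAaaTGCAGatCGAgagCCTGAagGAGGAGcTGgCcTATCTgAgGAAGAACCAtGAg
Krt28: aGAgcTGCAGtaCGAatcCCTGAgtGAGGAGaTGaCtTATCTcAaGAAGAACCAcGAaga
Krt42, second probe: gctaggcgcgcttgtgttagagtgtttgtt
Synm, position 5224: gtaagctaacactggaaaggaaaataggtg
Synm, position 6653: gttactacggctgtggctcgtcatctctta

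Over all genes, Nkx2-5 was lower in every mutant heart than in every control heart, by 0.66 on the log2 scale in TrbE10 (limma adjusted p = 0.0459) and by 0.59 in TrbE14 (adjusted p = 0.106). Tests were run on the 24593 probes that stood well above background in 3 or more of the 4 hearts of some group, and a probe was called at a limma adjusted p under 0.05. Of these probes, 416 were called in TrbE10 and 148 in TrbE14 against control, and 0 between the mutants, where 1417 probes had an unadjusted p under 0.05. Control and TrbE14 arrays were on 1 slide and the TrbE10 arrays on another, so slide and TrbE10 cannot be told apart, whereas TrbE14 and control were compared within a slide. The ventricular cardiomyocyte markers had 8 of 8 genes past the filter and none called in any comparison. Over all genes 1.93% were called in TrbE10, 0.66% in TrbE14 and 0% between the mutants, so few calls would fall among 8 genes. Of these markers, Myl3 had the same normalized level, 18.32, in all 4 TrbE10 hearts, which was also the highest in the other groups. Quantile normalization gives spots of equal rank the same level, so differences in amount between such hearts cannot be seen for Myl3. Of the 13 probes of the 8 genes, 11 passed the filter, leaving out the only probe of Krt7 and one of the pair for Krt8. All levels below are log2 normalized signals, which are comparable between hearts for one probe but not between probes.

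Krt19, a type I keratin of simple epithelia, had levels of 5.39, 3.38, 3.72 and 3.95 in the control hearts. The TrbE10 hearts measured 8.52, 7.60, 8.84 and 7.35. The TrbE14 hearts measured 7.78, 7.98, 7.38 and 7.50. Every mutant heart lay above every control heart, and the probe was well above background in all 8 mutant hearts but in only 1 of the 4 control hearts, the one at 5.39. The means were 4.11 ± 0.89 (SD, n = 4) in control, 8.08 ± 0.71 (SD, n = 4) in TrbE10 and 7.66 ± 0.27 (SD, n = 4) in TrbE14. The differences from control were 3.97 and 3.55 on the log2 scale, or 15.6-fold and 11.7-fold, as measured against a control mean that is mostly background. Background correction by normexp, which adds a constant to each signal, gave 1.97 and 1.58, and the authors' normalized values gave 2.95 and 2.53, so the direction but not the size of this difference was shared between settings. Between the mutants, Krt19 differed by 0.42 ± 0.43 (log2 change ± SE, 95% interval -0.53 to 1.36), which was not called (limma adjusted p = 0.959).

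**Figure D1:**
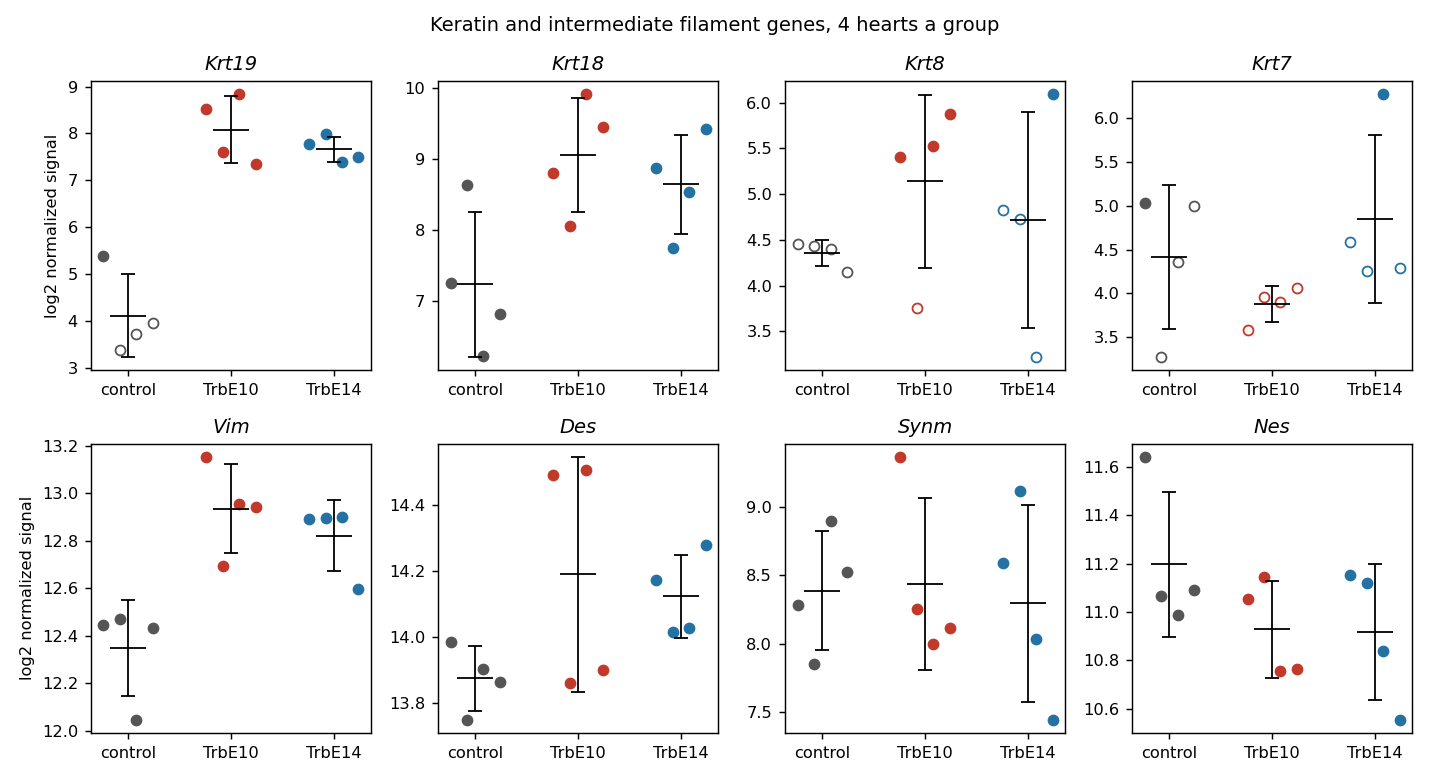
Log2 normalized signal of the 8 genes in each heart (4 per group; the probe of highest mean signal past the filter, or for Krt7 its only probe), with filled points well above background, open points not, and bars for mean ± SD. All mutant hearts lie above all control hearts for Krt19 (control up to 5.39, mutants from 7.35) and for Vim (control up to 12.47, mutants from 12.60), and for no other of the 8 genes.

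Krt18, the type I partner of Krt8 in simple epithelia, was well above background in all 12 hearts. Its control levels were 7.26, 8.63, 6.23 and 6.81. They were 8.81, 8.06, 9.91 and 9.44 in TrbE10 and 8.87, 7.75, 8.54 and 9.41 in TrbE14. The groups overlapped only through control heart 2, at 8.63. The log2 change was 1.82 ± 0.54 (SE) in TrbE10 and 1.41 ± 0.54 (SE) in TrbE14, that is 3.53-fold and 2.66-fold, and neither was called (limma adjusted p = 0.126 and 0.298). Without control heart 2 the changes were 2.28 (adjusted p = 0.0537) and 1.87 (adjusted p = 0.161), still short of the threshold. The difference between the mutants was 0.41, with a 95% interval from -0.78 to 1.60 (adjusted p = 0.964).

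Krt8, the type II partner of Krt18, was near background. Its probe in the last part of the transcript measured 4.45, 4.43, 4.40 and 4.14 in control hearts, none of them well above background. In TrbE10 it measured 5.41, 3.75, 5.52 and 5.87, of which 3 were above background. In TrbE14 it measured 4.83, 4.73, 3.22 and 6.09, with only the last above background. The probe therefore passed the filter through the TrbE10 group alone. The differences from control of 0.78 in TrbE10 and 0.36 in TrbE14 on the log2 scale are given as a description, since a probe that passes in this way was selected for being higher there, and neither was called. The other Krt8 probe was above background in 1 heart of each group and went the opposite way, with measured differences of -0.12 and -0.68. For Krt7, a type II keratin of ductal epithelia and mesothelium, the probe was above background in control heart 1 (5.04) and TrbE14 heart 3 (6.28) and not in the other 10, which measured 3.27 to 5.00, so no level could be set between groups.

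Mesothelial markers were measured beside the keratins, since mesothelium is a keratin-bearing layer of the heart. Of 12 such genes, 8 passed the filter, and 1 of these was called in TrbE10 and 0 in TrbE14, where 1.93% and 0.66% of all 18021 genes were called. Of the 8 genes, 6 had positive log2 changes in each mutant, with medians of 0.72 in TrbE10 and 0.57 in TrbE14 against medians of -0.02 and -0.03 over all genes. Among the 6, Tbx18, Muc16 and Gpm6a were above background in only 2 control hearts each. They passed the filter through 1 or both mutant groups alone, which favours a positive change, so these counts and medians are a description. Tbx18, a transcription factor of the epicardial lineage, had a log2 change of 1.40 in TrbE10 (limma adjusted p = 0.0292) and 0.79 in TrbE14 (adjusted p = 0.255). It was above background in all 4 hearts of each mutant group but in 2 control hearts. As it passed the filter through the mutant groups alone, nothing is read from its call. Wt1, another epicardial factor, had changes of 1.22 (adjusted p = 0.0780) and 0.93 (adjusted p = 0.246). The other pair of genes went the opposite way without being called, Wnt9b with -0.96 and -0.53 (adjusted p = 0.231 and 0.537) and Rspo1 with -0.51 and -0.69 (adjusted p = 0.517 and 0.417). Wnt9b was above background in 4 control, 1 TrbE10 and 4 TrbE14 hearts. Passing the filter without the TrbE10 group favours a negative change there, so the Wnt9b value in TrbE10 is a description too. The summed linear signal of the 12 genes lay between 991 and 1778 in control hearts, between 1499 and 3207 in TrbE10 hearts and between 1357 and 2491 in TrbE14 hearts. Of the defining markers, Lrrn4 was above background in 0 of 12 hearts and Upk3b in 3, whereas Msln was above background in 10 and Wt1 in all 12. The epithelial markers were almost all at background, with Cdh1 above it in 0 hearts and Epcam in 1, and of these 11 genes Cldn7 alone passed the filter. The part of these cells in the keratin levels was not tested, and in whole tissue more cells of a type and more RNA per cell cannot be told apart.

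Vim, the vimentin gene, was the only member not chosen by its values to be called in a comparison. The control hearts measured 12.44, 12.47, 12.05 and 12.43. The TrbE10 hearts measured 13.15, 12.69, 12.95 and 12.94, and the TrbE14 hearts 12.89, 12.89, 12.90 and 12.60. All 8 mutant hearts lay above all 4 controls. In TrbE10, Vim rose with a log2 change of 0.59 ± 0.13 (SE, limma adjusted p = 0.0477), and in TrbE14 it had 0.47 ± 0.13 (SE, 1.39-fold, adjusted p = 0.152). Between the mutants the difference was 0.11, with a 95% interval from -0.17 to 0.40 (limma adjusted p = 0.963). The call in TrbE10 was close to the threshold. Of the 12 fits that left out 1 heart, it was kept in 2, without TrbE10 heart 2 (adjusted p = 0.0241) or TrbE14 heart 4 (adjusted p = 0.0493), and lost in 10, with adjusted p from 0.0579 to 0.123 and log2 changes from 0.49 to 0.67 over all 12. Scaling to the 75th percentile (adjusted p = 0.0681), no filter on dim probes (0.104), the replicate number as a block (0.0847) and a fit of TrbE10 and control alone (0.0941) also ended it.

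Vim is expressed by several mesenchymal cell types, and their markers were measured as well. All 10 genes of the mesenchymal and fibroblast list passed the filter, 9 had positive log2 changes in TrbE10 and 8 in TrbE14, and the medians were 0.43 and 0.42. Dcn, the matrix proteoglycan decorin, rose by 0.39 in TrbE10 (limma adjusted p = 0.0376) and by 0.50 in TrbE14 (adjusted p = 0.0190), and it was the only gene of the list called in either, 1 of 10 beside 1.93% and 0.66% of all genes. Thy1, a surface protein of fibroblasts among other cells, was lower in every mutant heart than in every control heart, with changes of -0.54 (adjusted p = 0.0502) and -0.52 (adjusted p = 0.0895), and was not called. The summed linear signal of the 10 genes lay between 74286 and 83070 in control hearts, between 92345 and 110265 in TrbE10 hearts and between 96510 and 114946 in TrbE14 hearts, with no overlap between control and mutant hearts. Dcn alone made up 67.1% to 76.7% of this sum over the 12 hearts. Without Dcn the sum of the other 9 genes lay between 21238 and 27347 in control, between 26904 and 34543 in TrbE10 and between 22487 and 33252 in TrbE14 hearts, so that both mutant groups overlapped control. In the endothelial list, 0 of 6 genes were called, and in the smooth muscle and pericyte list, Pdgfrb rose in TrbE10 (by 0.37, limma adjusted p = 0.0444) as the only one of 8. Its means were 10.29 in control, 10.66 in TrbE10 and 10.69 in TrbE14. In TrbE14 it was not called, although every heart there also lay above every control heart. The shares over all genes were again 1.93% in TrbE10 and 0.66% in TrbE14. The part of these cells in the Vim level was not tested.

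**Figure D2:**
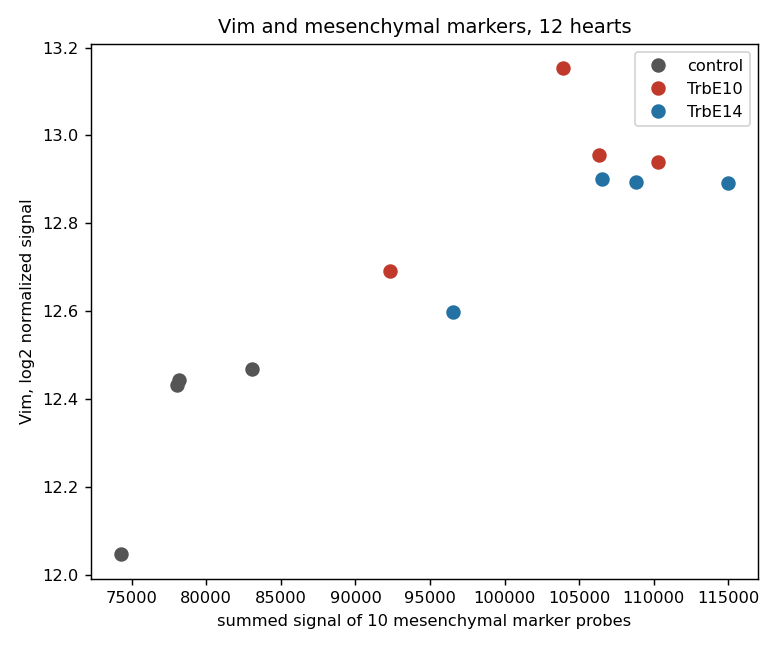
Vim level (log2 normalized signal) against the summed signal of the 10 mesenchymal marker probes (linear scale) in each of the 12 hearts. The control hearts lie lowest on both axes, up to 83070 and 12.47, and all mutant hearts lie above them on both, the sum being mostly the Dcn signal.

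Des, desmin, is the main filament of cardiac muscle and had 10 spots of 1 probe on each array, which were averaged. Its levels were 13.99, 13.75, 13.90 and 13.86 in control, 14.49, 13.86, 14.504 and 13.90 in TrbE10, and 14.17, 14.02, 14.03 and 14.28 in TrbE14. In TrbE10 a pair of hearts (1 and 3) stood above all others and the other pair among the controls, whereas every TrbE14 heart lay above every control heart. The log2 changes of 0.31 ± 0.15 (SE; limma adjusted p = 0.340) and 0.25 ± 0.15 (SE; adjusted p = 0.494) were not called. Nes, nestin, measured 11.64, 11.07, 10.99 and 11.09 in control, 11.05, 11.15, 10.75 and 10.76 in TrbE10, and 11.15, 11.12, 10.84 and 10.55 in TrbE14. Its log2 changes were -0.27 and -0.28 (adjusted p = 0.488 and 0.502), with overlapping groups, and without control heart 1, the highest, they were -0.12 and -0.13.

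Of the 6 members that were not chosen by their values, 5 had a probe past the filter, and 1 of these, Vim, was called in TrbE10 against control, where the share over all probes tested was 1.69%. In TrbE14 against control 0 of 5 were called (Krt18 and Vim had an unadjusted p under 0.05), beside 0.602% of all probes. Between TrbE10 and TrbE14, 0 of the 7 members with a tested probe were called, Krt19 and Synm included, beside 0% of all probes, and none of the 7 had an unadjusted p under 0.05. Krt8 is among the 5, although it passed only through its high TrbE10 hearts. The arrays of mutant and control did not overlap for 1 of the 5 in TrbE10 (Vim) and 2 of the 5 in TrbE14 (Vim and Des), against 10.1% and 9.43% of all probes tested. Exact two-sided permutation tests of single genes, 12 in all over these 6 members and both mutants, gave an unadjusted p = 0.0286, the smallest that 4 against 4 hearts allow, for Vim in both mutants and for Des in TrbE14. They gave 0.0571 and 0.0857 for Krt18 in TrbE10 and TrbE14, 0.257 for Des in TrbE10, and 0.143 or more for the others. Nothing is read from the values for Krt8 and Krt7, whose probes lay near background. Both comparisons share the control hearts.

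**Figure D3:**
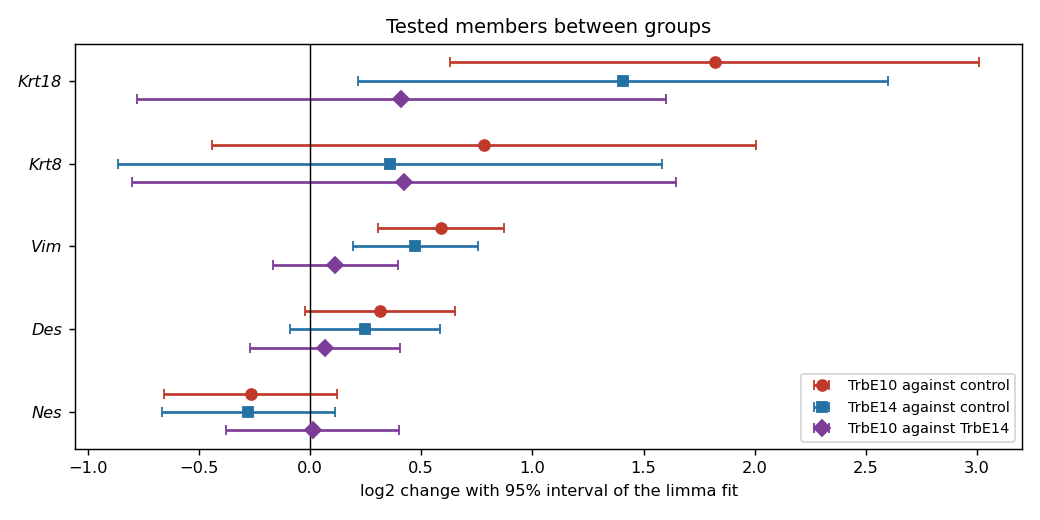
Log2 change of 5 members against control (points; Krt8 as a description) with the 95% interval of the limma fit (bars), for TrbE10 against control, TrbE14 against control and TrbE10 against TrbE14. The intervals of Krt18 and Vim lie above 0 in TrbE10 (0.63 to 3.01 and 0.30 to 0.87) and in TrbE14 (0.22 to 2.60 and 0.19 to 0.76). They are not adjusted for the number of probes, and only Vim in TrbE10 was called. All 5 intervals between the mutants include 0.

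Synm encodes synemin, which binds desmin and vimentin, and it has 5 probes on the array, all past the filter. The probe at position 5224 of the transcript measured 7.08, 8.35, 2.40 and 7.51 in control hearts. It measured 3.86, 7.18, 8.37 and 6.93 in TrbE10 and 7.33, 3.21, 7.80 and 7.84 in TrbE14. It was therefore at background in exactly 1 heart of each group (control 3, TrbE10 1 and TrbE14 2) and above background in the other 9. The signal differed between hearts of one group far more than between groups, whose means were 6.33 ± 2.68, 6.59 ± 1.92 and 6.55 ± 2.23 (SD, n = 4).

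The other Synm probes showed no such fall in these hearts. The brightest, at position 6653, measured 8.28, 7.86, 8.90 and 8.52 in control, 9.36, 8.26, 8.0 and 8.12 in TrbE10, and 8.59, 9.12, 8.04 and 7.45 in TrbE14. The highest heart of each group on this probe (8.90, 9.36 and 9.12) was the one at background on the probe at position 5224. The same held for the probe at position 7488, which ranged from 6.58 to 7.19 over the 12 hearts. The probe at position 815 ranged from 5.02 to 6.98 and was highest in the same TrbE10 and TrbE14 hearts (6.98 and 6.82) but in another control heart. Over the 12 hearts, the probe at position 5224 had Pearson's r of -0.83 with the brightest probe, -0.61 with that at 7488 and -0.68 with that at 815, while these others had r from 0.75 to 0.84 among themselves. The probe at position 5747 was dim (3.90 to 5.69). It was not above background in control heart 3 (4.52), TrbE10 heart 2 (4.63) and TrbE14 heart 3 (3.90). These correlations describe 1 set of hearts and rest in part on the same 3 hearts.

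**Figure D4:**
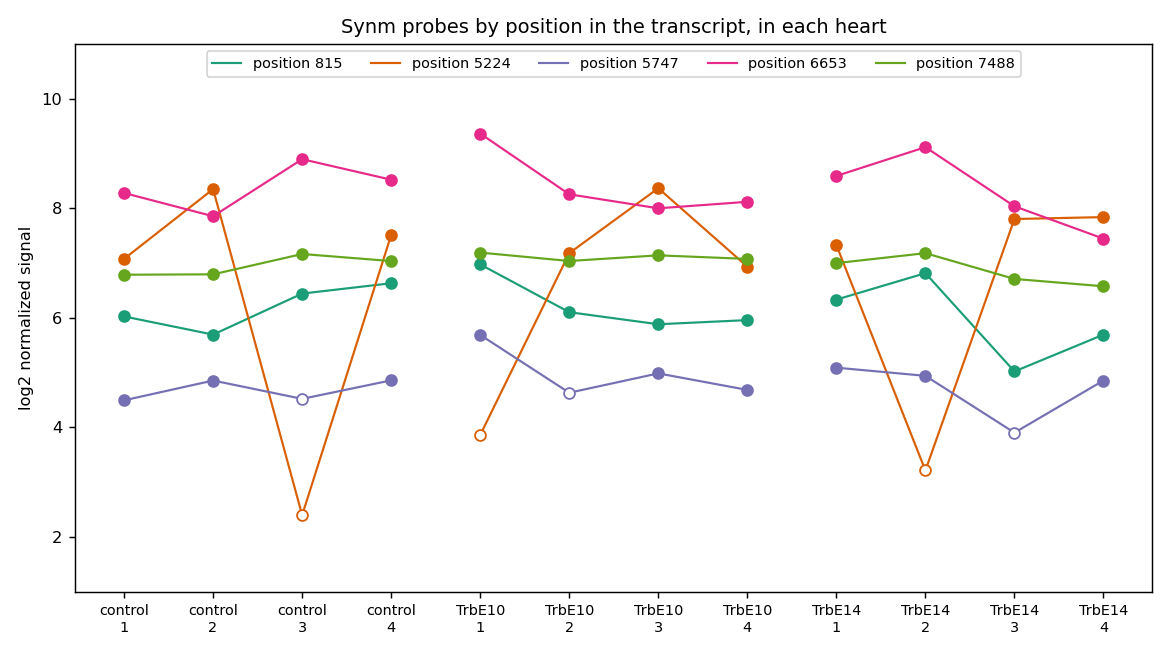
Log2 normalized signal of the 5 Synm probes in each of the 12 hearts, named by their position in the transcript, with filled points well above background and open points not. The probe at 5224 drops to 2.40, 3.86 and 3.21 in 1 heart of each group, where the probe at 6653 is at its highest in that group; levels of different probes are not comparable.

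Between groups the brightest Synm probe had log2 differences of 0.05 in TrbE10 and -0.09 in TrbE14 against control, given as a description. Between the mutants it differed by 0.14, with a 95% interval from -0.72 to 0.99 (limma adjusted p = 0.982), and for the other 3 probes the adjusted p of that comparison ran from 0.919 to 0.966, leaving out the probe at 5224, which was chosen by its spread and is not tested. The 5 genes whose levels were most like those of the brightest probe over the 12 hearts were Dnajc18 (r = 0.893), Pdp1 (0.885), Chst14 (0.881), Commd7 (0.878) and Ccdc61 (0.875). For the probe at position 5224, a choice made after its values were seen, Tesk1 (r = 0.916) and Gm10767 (0.916) were most like it. Next came a probe named by an interval of chromosome 18 (0.904), Padi2 (0.894) and a probe with no gene name (0.881). All 5 lie on chromosomes other than that of Synm. In each group, all 5 were lowest in the heart where that Synm probe was at background. They were picked for this likeness, and its cause was not tested. Gm10767 went from 8.47 to 10.2 within the control group. No p is given for these rankings, which were drawn from 18021 genes.

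The 5 genes whose pattern was most like that of Krt19 over the 12 hearts were Cd207 (r = 0.967), Cxcl13 (0.966), Vsig4 (0.953), Nlgn2 (0.952) and Fam38b (0.948). Cd207 encodes langerin, a lectin of Langerhans and dendritic cells. Cxcl13 is a chemokine for B cells, and Vsig4 a complement receptor of resident macrophages. Cd207 was above background in none of the control hearts and all 8 mutant hearts, with means of 3.45, 10.8 and 10.4 in control, TrbE10 and TrbE14. Vsig4 was above background in all 12, with means of 7.27, 11.4 and 11.1. Most of this likeness was the gap between control and mutant hearts, since with the group means removed r fell to between 0.27 (Vsig4) and 0.69 (Cd207).

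Among the other 61 intermediate filament genes on the array, 17 had a probe past the filter, and 1 was called, Krt42 in TrbE10, beside 1.93% of all genes. In TrbE14 0 of 17 were called, beside 0.66%. The first Krt42 probe, the one in the alignment above, measured 4.49, 3.15, 2.86 and 4.17 in control, 5.90, 5.63, 6.35 and 5.61 in TrbE10, and 5.01, 5.71, 5.81 and 5.25 in TrbE14. It was above background in every mutant heart and no control heart, so it passed the filter through the mutant groups alone and had to differ from control, and nothing is read from its call. Its fitted log2 changes were 2.21 in TrbE10 (limma adjusted p = 0.0110, and 0.0392 with no filter) and 1.78 in TrbE14 (adjusted p = 0.0506, not called). Against the lowest signal well above background this gives at least 2.42-fold and at least 1.80-fold on the quantile-normalized values used here. These bounds do not carry over to other settings, since normexp gave log2 changes of 0.60 and 0.54 and the authors' normalized values 0.80 and 0.41. The call in TrbE10 ended with the authors' values (adjusted p = 0.0515), and the probe did not pass the filter on 9 of 12 arrays. Between the mutants it differed by 0.42 (adjusted p = 0.946). The second Krt42 probe was above background in 0 of 12 hearts and measured 2.24 to 2.32, so the probes of this gene disagree. The Krt28 probe, which shares most bases with the first, was likewise above background in 0 hearts. Over the 12 hearts the first Krt42 probe had r = 0.947 with Krt19, and 0.705 with the group means removed. The first Krt42 probe matched the Krt19 probe in 19 of 60 bases at best, but no Krt19 transcript was compared with it here, and whether it also binds that transcript was not tested.

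**Figure D5:**
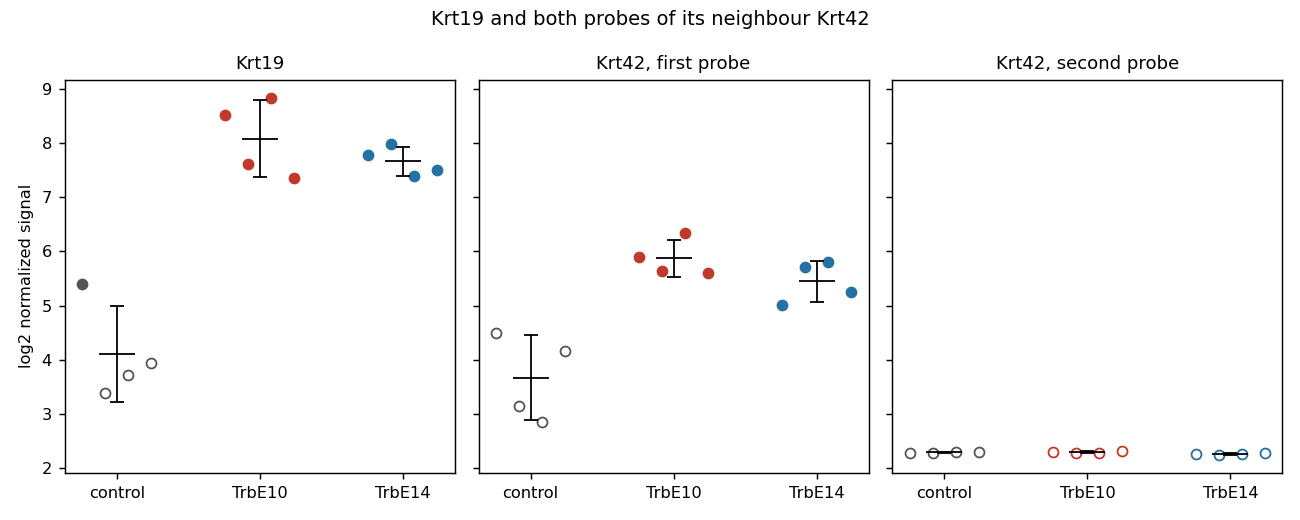
Log2 normalized signal of Krt19 and of both Krt42 probes in each heart (4 per group), with filled points well above background, open points not, and bars for mean ± SD. The first Krt42 probe is filled in all 8 mutant hearts and open in the 4 controls, while the second stays between 2.24 and 2.32 throughout.

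The other type I keratin genes beside Krt19 gave no such signal. In the RefSeq order of genes (GRCm38.p6, used for the order only), Krt15 and Krt9 are its direct neighbours and Krt14, Krt16 and Krt17 lie between Krt9 and Krt42. The probes of Krt15, Krt9 and Krt17 were above background in 0 hearts and that of Krt14 in 2. Krt16 was above background in 11, with log2 changes of 0.20 and 0.29 (limma adjusted p = 0.759 and 0.634). Among the remaining filtered genes of the list, the nuclear lamin genes Lmna (0.12 and 0.09), Lmnb1 (0.21 and 0.10) and Lmnb2 (-0.30 and -0.10) and the desmin-binding Sync (0.05 and 0.00) were not called. The list had positive changes in 10 of 17 genes in TrbE10 and 11 of 17 in TrbE14, with medians of 0.12 and 0.09. Over all 18021 genes 8151 and 7954 were positive.

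Filament linkers and partners were measured as 20 genes, of which 19 passed the filter and 0 were called in any comparison. Over all genes 1.93% were called in TrbE10, 0.66% in TrbE14 and 0% between the mutants, so few calls would fall among 19 genes. The brightest were Cryab and Hspb1, small heat shock proteins that bind desmin, and Plec, the cytolinker plectin. Cryab had log2 changes of -0.00 and -0.12 (limma adjusted p = 0.992 and 0.697), Hspb1 of -0.26 and -0.25 (adjusted p = 0.207 and 0.290) and Plec of -0.17 and 0.06 (adjusted p = 0.333 and 0.767). The list medians were -0.03 in TrbE10 and 0.03 in TrbE14, with 7 and 11 positive changes, beside 8151 and 7954 of all 18021 genes.

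Pairs of the 8 genes were correlated over the 12 hearts after removal of the group means. Of the 28 pairs, 15 hold neither Krt19 nor Synm, and none of these passed the adjustment over the 15. The partners Krt8 and Krt18 had r = 0.493 (permutation p = 0.101, adjusted p = 0.600) and Spearman's rho = 0.636 (permutation p = 0.0297, adjusted p = 0.446). Without the 2 hearts farthest from the median of Krt18, r was 0.656. The Krt8 probe was above background in only 3 TrbE10 hearts and 1 TrbE14 heart, so most of its levels in this correlation are background. The pairs with Krt19 or Synm are a description, as both were chosen by their values. Among them r was largest in size for Krt19 with Des (r = 0.683, rho = 0.783) and for Krt18 with Synm (r = -0.679, rho = -0.741). Without the 2 hearts farthest from the median of the first gene of each pair, r was 0.675 and -0.606.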

How the data were processed

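For each array the authors deposited the scanner software's output (Agilent Feature Extraction 10.5 per the labels), whose processed signal is a background-subtracted intensity on a linear scale, not yet scaled across arrays. A second deposited table holds their quantile-normalized log2 values after a background filter of their own. No array had a saturated spot. Precision is limited by how few arrays each group has.

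For the comparisons, the log2 of the processed intensity was quantile normalized after control spots and outlier spots had been taken out, and replicate spots were averaged. A linear model with 1 mean per group over 12 arrays was fitted in R 4.3.3 with limma 3.58.1, in place of the SAM test of the methods, with Benjamini-Hochberg adjustment over all 24593 probes. The fit was tested on simulated data. Among the filtered probes 7 values were missing, none in a member. Where no array of a group was well above background, a fold is a lower bound: the mean of the other group against, per array, the higher of the probe's signal and the lowest signal well above background. Exact permutation tests were two-sided over 70 label orders. Correlation p-values used 100000 permutations. Nothing in the labels says that the 4 mice of a group came from separate litters.

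The members and all lists were chosen with earlier results of these data known. Each gene was named by its filtered probe of highest mean signal. From each filament list, called genes were named, or otherwise the 3 of highest signal, and from the 18021 genes the 5 most like Krt19 and the 5 most like Synm. Lists of mesothelial, epithelial, mesenchymal, smooth muscle, endothelial, Schwann cell, skeletal muscle, ventricular and atrial markers were also counted. In the last list, of 6 genes, Sln, Bmp10 and Dkk3 were called higher in TrbE10 and Bmp10 in TrbE14, beside 1.93% and 0.66% of all genes. Bmp10 was above background in 0 control hearts, so it passed the filter through the mutants alone. The defining atrial markers Myl7 and Myl4 were not called. Myl7 had means of 10.26 ± 1.47, 10.14 ± 1.40 and 10.26 ± 1.07 (SD) in control, TrbE10 and TrbE14, and Myl4 of 12.94 ± 1.25, 12.86 ± 1.19 and 13.03 ± 0.86. Single hearts of a group differed widely, in control from 8.68 to 12.14 for Myl7 and from 11.72 to 14.58 for Myl4. The near-equal means therefore do not show an even atrial signal from heart to heart. In the Schwann cell and skeletal muscle lists 0 genes were called, of 5 and 3 past the filter. Sequences came from the deposited annotation. Alternatives were 75th percentile scaling, normexp (offset 50), background filtering on 9 of 12 arrays whatever the group, leaving the filter out, the authors' table, only the groups compared, the replicate number as a block, and leaving out each array.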

Additional observations from a re-analysis of the deposited data

Results flagged for a closer look

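In each group of 4 hearts, the highest or lowest value was compared with the rest over the 13 probes of the 8 genes. Of 39 groups of values, 6 held a heart that stood far from the other 3 by Dixon's ratio at the 95% level, where chance alone gives about 1 in 20. Krt8 was at 4.14 in control heart 4, against at most 4.45 in the others, all of them at background. Krt7 reached 6.28 in TrbE14 heart 3, against 4.25 to 4.59. Vim was lowest in control heart 3 (12.05, against 12.43 to 12.47) and in TrbE14 heart 4 (12.60, against 12.89 to 12.90), and both hearts bear on the Vim comparisons given in the report. The Synm probe at position 5224 was at 3.21 in TrbE14 heart 2, against 7.33 to 7.84. Nes was highest in control heart 1, at 11.64 against 10.99 to 11.09.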

How the results depend on the processing

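Of 396 values of the members under another setting, 378 stayed on the same side of the threshold or within 1 SD. In 15 of these the sign changed, all of them in values that were not called. The 14 others that had a test were all Vim in TrbE10 against control, which lost its call, and 4 were Krt19, under normexp and in the authors' table. The count of 1 member called in TrbE10 fell to 0 with scaling to the 75th percentile, with no filter, with only the 2 groups compared and with the replicate block. Over all probes, scaling to the 75th percentile gave 2 calls between the mutants, normexp 240 in TrbE14, no filter 197 in TrbE10 and 2 between the mutants, and only the 2 groups compared 263 in TrbE10. Leaving out 1 array at a time gave 159 (without TrbE10 heart 3) to 709 (without TrbE10 heart 2) calls in TrbE10, 83 (without control heart 3) to 190 in TrbE14 and 0 to 1 between the mutants. The TrbE10 count was also 236, 207 and 186 without control hearts 1, 3 and 4 and 222 and 224 without TrbE10 hearts 1 and 4, and the TrbE14 count 92 and 88 without control hearts 1 and 4, 93 without TrbE14 heart 2 or 3 and 95 without TrbE14 heart 4. For the members these fits gave 0 to 1 calls in TrbE10. The cause of these shifts was not tested.

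With the replicate block, 316 probes were called in TrbE10, 146 in TrbE14 and 1 between the mutants. The replicate numbers were not taken to pair the hearts: same-numbered hearts had correlations from -0.24 to 0.08 between control and either mutant, while TrbE10 and TrbE14 hearts had 0.37, 0.31 and 0.48 for replicates 1, 2 and 4 and -0.01 for replicate 3. Krt8, Krt7 and the control level of Krt19 lie at or near background, so their differences are limited by the signal. The correlation of Krt8 with Krt18 was 0.528 with scaling to the 75th percentile and 0.569 with normexp.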
